A study of Mus musculus with 9 samples.

Results

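The comparison described here is that of AHR KO with WT colon organoids after exposure of both genotypes to FICZ, and it rests on 5 of the 9 RNA-seq libraries of the series, which were placed in their groups by their labels. Organoids are three-dimensional epithelial cultures grown from crypts of the mouse colon. AHR KO FICZ had 2 libraries, numbered 1 and 3, and WT FICZ had 3, numbered 1, 2 and 3. All 5 were grown in WENR, a medium that contains Wnt3a, EGF, Noggin and R-spondin and keeps the cells in a stem-cell-like, regenerative state. As made in the study, WENR also held SB202190, an ALK5 inhibitor and nicotinamide. All 5 received 5 nM of FICZ for 4 h. Per the methods of the study, AHR KO organoids came from C57BL/6 Vil-Cre Ahr fl/fl mice, in which Cre under the Villin promoter deletes a floxed part of Ahr in epithelial cells only, and WT organoids came from littermates. Libraries of both genotypes that received the solvent DMSO for 4 h (2 each, WT numbered 2 and 3, AHR KO numbered 1 and 3) were used to ask whether a difference under FICZ was also present without it. FICZ treatment itself was on both sides of the comparison, and the labels give no batch or date. Where the labels do not say whether libraries came from separate animals, p-values measure the spread between these libraries only.

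AHR is a transcription factor of the cytosol that is held by HSP90 and other chaperones until a ligand binds. It then enters the nucleus, pairs with ARNT and binds a short DNA motif near genes such as Cyp1a1, Cyp1b1 and Ahrr. FICZ, a tryptophan photoproduct, is a ligand of high affinity that the CYP1 enzymes break down, and in the gut epithelium AHR is known for control of these enzymes, of barrier function and of the stem cell compartment.

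Normalised read counts in the 5 FICZ libraries summed to between 23177058 and 24534477, and the depth estimated from the step between low values was 21.6 to 24.6 M reads. Across genes, which are not independent replicates, libraries of the same genotype under FICZ correlated at r = 0.986 to 0.990 (4 pairs) and libraries of different genotype at 0.967 to 0.978 (6 pairs). Epithelial markers (Epcam, Cdh1, Krt8 and 5 others) summed to between 323800 and 348500 in AHR KO FICZ and between 325100 and 355500 in WT FICZ. Of these 8 genes, 1 was called higher and 1 lower in AHR KO FICZ. Epcam had 31620, 31460 and 32110 in WT FICZ and 24950 and 21240 in AHR KO FICZ. Krt18 had 32290, 38760 and 35390 in WT FICZ and 46810 and 45050 in AHR KO FICZ. Of the defining markers of other cell types, Ptprc, Adgre1, Lum, Dcn, Col1a2, S100b and Sox10 were at 0 in all 5. The sum of the fibroblast markers was 34.6 to 39.1 in AHR KO FICZ and 90.2 to 111.0 in WT FICZ, nearly all of it Pdgfrb, and that of the nerve and glia markers was 12.6 to 24.2 and 60.7 to 86.4, nearly all of it Elavl4. Muscle markers summed to 2.0 to 5.5 in all 5 libraries, endothelial markers to 18.5 to 22.2 in AHR KO FICZ and 25.6 to 57.8 in WT FICZ, and immune markers, nearly all Cd68, to 563.6 to 726.8 and 483.2 to 533.9. In bulk RNA, fewer cells of a type and less RNA per cell cannot be told apart.

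The targeted gene was not lower in the libraries labelled AHR KO. Ahr had 1443 and 1387 normalised counts in AHR KO FICZ and 790.7, 798.0 and 782.7 in WT FICZ, a log2 difference of 0.84 ± 0.06 (SE). A count over the whole gene cannot tell if the floxed exon is gone, so Ahr checks nothing here, and AHR KO stands below for libraries so labelled. Of its partners, Arnt was -0.01, Hsp90ab1 -0.04 and Ptges3 0.13 on the log2 scale, none of them called, while the chaperone gene Hsp90aa1 was called at 0.27 (adjusted p = 0.032) but lost the call when any FICZ library except WT replicate 2 was left out (adjusted p up to 0.127).

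Between the genotypes under FICZ, 2544 of 12741 genes tested were called (limma, Benjamini-Hochberg adjusted p under 0.05), or 20.0%, with 1208 higher (9.48%) and 1336 lower (10.5%) in AHR KO. Most differences were small. The median absolute log2 difference of called genes was 0.46, and 557 (4.37% of genes tested) differed at least 2-fold, 282 higher and 275 lower. Without AHR KO FICZ replicate 3 the count was 1312, and 1241 of these were among the 2544. The libraries of the genotypes did not overlap for 6018 genes (47.2%) and for 2543 of the 2544 called, so that a lack of overlap at a called gene follows from the call.

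The 9 tested genes of the AHR battery, the set of direct targets that is read out as AHR activity in many tissues, were called lower in AHR KO FICZ, against 10.5% of all genes. Their median log2 difference was -3.04. Cyp1a2, the tenth member, was under the filter on low values. In the order WT FICZ replicates 1, 2 and 3 and then AHR KO FICZ replicates 1 and 3, which is kept below, Cyp1a1 (ENSMUSG00000032315, chromosome 9, 57687928 to 57703824 on GRCm38), which encodes the P450 enzyme that clears FICZ, had 7797, 6987 and 7958 normalised counts against 100.3 and 138.8. It was 63.4 times lower in AHR KO by the group means, with a log2 difference of -5.99 ± 0.71 (SE, adjusted p = 0.000262). Cyp1b1 (ENSMUSG00000024087, chromosome 17, 79701537 to 79715061), a related P450, had 10220, 10600 and 8898 against 136.6 and 222.0, a log2 difference of -5.82 ± 0.22 (adjusted p = 2.3e-07). The AHR KO libraries stood far below the WT libraries for both, yet neither gene was at the floor of 3 counts in AHR KO FICZ.

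Ahrr (ENSMUSG00000021575, chromosome 13, 74211118 to 74292331), the repressor that competes with AHR for ARNT, had 567.6, 426.8 and 435.4 normalised counts in WT FICZ against 16.9 and 17.3 in AHR KO FICZ, a log2 difference of -4.71 ± 0.30. Tiparp (chromosome 3, 65528410 to 65555518), whose product ADP-ribosylates AHR and limits its activity, had 4989, 5723 and 4923 against 1304 and 1137 (log2 difference -2.09 ± 0.08). Both feedback inhibitors were therefore lower in each AHR KO library than in any WT library. The detoxification genes followed the same direction. Nqo1, a quinone reductase, had 1864, 1809 and 1725 against 288.2 and 295.3 (log2 difference -2.62 ± 0.07, adjusted p = 8.9e-08). The glucuronosyltransferase genes Ugt1a6a (log2 difference -3.54 ± 0.19) and Ugt1a7c (-3.04 ± 0.12) share their last exons, so their separate values are uncertain. The same limit holds for Ugt1a1, of the same locus, given below. Nfe2l2, which encodes the oxidative stress factor NRF2, had 13080, 12560 and 12880 against 6675 and 6600 (-0.95 ± 0.05, adjusted p = 2e-06).

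Aldh3a1, an aldehyde dehydrogenase, was the least firm of the battery. It had 220.8, 141.7 and 151.4 normalised counts in WT FICZ and 51.6 and 98.2 in AHR KO FICZ (log2 difference -1.23 ± 0.33, adjusted p = 0.0248), and the call was lost without AHR KO FICZ replicate 1 or without WT FICZ replicate 1, among others, with adjusted p up to 0.196. Under DMSO the direction was the opposite, with 25.1 and 14.0 in WT and 58.0 and 67.7 in AHR KO (log2 difference 1.68, adjusted p = 0.017).

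**Figure D1:**
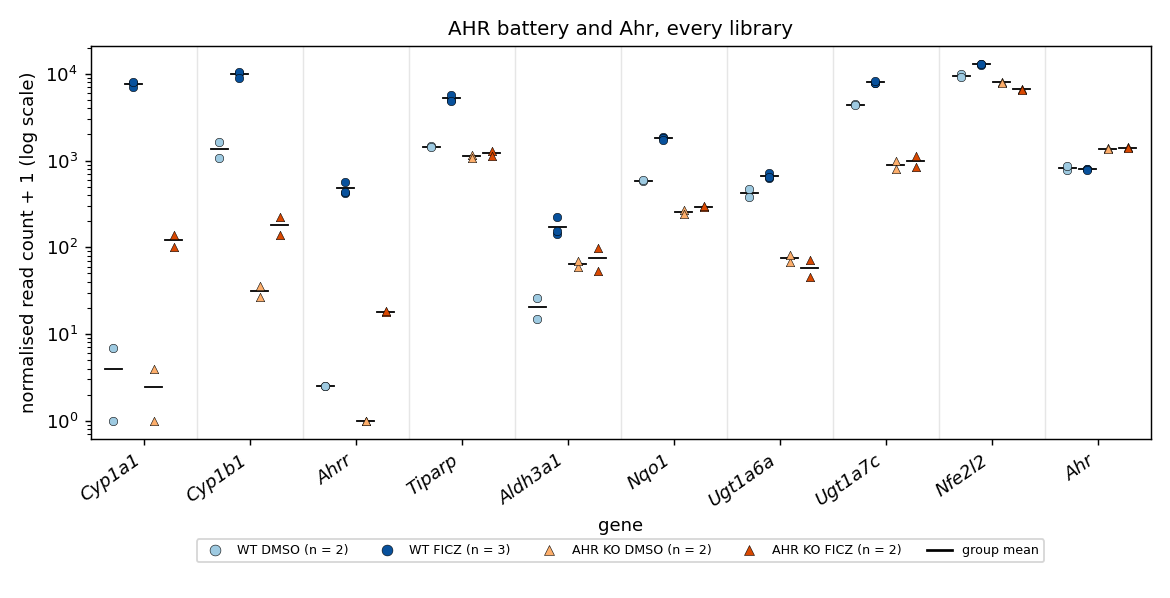
Normalised read count + 1 (log scale) of the 9 tested AHR battery genes and of Ahr in every library of the 4 groups; points are libraries and bars are group means. WT FICZ (dark circles) lies above AHR KO FICZ (dark triangles) for the 9 battery genes, and for Ahr the order is the opposite, with 1443 and 1387 in AHR KO FICZ.

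The 250 bases before the RefSeq start site (GRCm38.p6) were read for the core of the AHR motif, GCGTG, on either strand (its reverse complement is CACGC). Of 9607 tested genes with an entry, 4895 (51.0%) held it, as did 30.9% of all 27025 genes with one. The battery did not stand out by this measure, with 4 of 8 genes that had an entry, and the share was 37.9% for genes called at least 2-fold lower (74 of 195) and 39.1% for those called at least 2-fold higher (81 of 207). The windows of 4 battery genes and of Slc2a6, described next, are shown because they hold the motif and lie at genes with large differences. Each runs 5′ to 3′ on the strand of the gene, with GCGTG or CACGC in capitals. They lie at chr9:57697363-57697612 (plus strand), chr17:79715062-79715311 (minus), chr13:74292332-74292581 (minus), chr3:65528197-65528446 (plus) and chr2:27027999-27028248 (minus). A match is a description of the letters and not a bound site.
Cyp1a1: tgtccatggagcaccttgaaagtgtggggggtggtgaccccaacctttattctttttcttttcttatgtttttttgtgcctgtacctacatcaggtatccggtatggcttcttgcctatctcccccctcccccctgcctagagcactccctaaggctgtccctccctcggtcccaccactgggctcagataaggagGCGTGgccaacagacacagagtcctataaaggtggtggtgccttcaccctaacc
Cyp1b1: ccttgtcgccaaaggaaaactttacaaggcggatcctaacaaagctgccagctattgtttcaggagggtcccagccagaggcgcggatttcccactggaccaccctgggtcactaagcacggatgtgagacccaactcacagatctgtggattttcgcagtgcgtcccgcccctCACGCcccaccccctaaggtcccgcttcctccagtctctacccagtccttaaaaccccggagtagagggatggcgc
Ahrr: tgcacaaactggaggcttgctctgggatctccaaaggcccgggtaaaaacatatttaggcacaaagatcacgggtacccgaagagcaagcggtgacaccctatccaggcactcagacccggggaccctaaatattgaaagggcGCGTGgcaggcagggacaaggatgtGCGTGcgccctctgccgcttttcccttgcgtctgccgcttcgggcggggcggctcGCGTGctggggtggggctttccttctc
Tiparp: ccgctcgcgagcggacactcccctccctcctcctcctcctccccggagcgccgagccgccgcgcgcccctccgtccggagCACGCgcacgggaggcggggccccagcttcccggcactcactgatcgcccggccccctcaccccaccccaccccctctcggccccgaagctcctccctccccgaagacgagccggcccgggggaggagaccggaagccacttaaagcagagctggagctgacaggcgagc
Slc2a6: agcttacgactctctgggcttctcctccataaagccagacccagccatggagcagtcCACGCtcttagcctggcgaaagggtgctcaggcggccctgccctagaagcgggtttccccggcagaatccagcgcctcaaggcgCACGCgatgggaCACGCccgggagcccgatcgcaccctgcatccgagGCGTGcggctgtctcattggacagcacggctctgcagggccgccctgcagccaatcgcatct
Cyp1a1, Cyp1b1 and Tiparp held 1 match each, Ahrr 3 and Slc2a6 4, while the windows of Nqo1, Ugt1a6a, Ugt1a7c and Nfe2l2 held 0 and Aldh3a1 had no entry.

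Outside the battery, the protein-coding genes with the lowest log2 differences included a transporter, a chemokine and genes of secretion and transport. Slc2a6 (ENSMUSG00000036067, chromosome 2, 27021363 to 27027998), a glucose transporter family member, had 1545, 1238 and 1383 normalised counts in WT FICZ against 88.0 and 98.5 in AHR KO FICZ, 14.9 times lower (log2 difference -3.88 ± 0.14, adjusted p = 1.6e-07). Ccl28, a mucosal chemokine, had 753.4, 603.1 and 696.8 against 72.3 and 44.2 (-3.57 ± 0.20). Sytl2, a synaptotagmin-like protein of vesicle trafficking, had 906.1, 925.1 and 1011 against 116.9 and 85.4 (-3.23 ± 0.15). In each of these 3 genes every AHR KO library was at least several-fold below every WT library. Fetub, of the fetuin family of protease inhibitors, was also lower (-3.12 ± 0.29). Mamdc4 (-3.60 ± 1.09, adjusted p = 0.0432) rested on AHR KO FICZ libraries as far apart as 0.52 and 42.9 and lost its call in 11 of the 20 alternatives that gave it a value. Gm47283, annotated on chromosome Y, had 431.3, 575.2 and 374.2 against 7.9 and 14.6, while of 4 other Y genes Ddx3y and Eif2s3y were at 0, Kdm5d at 6.91 to 12.7 and Uty at 2.12 to 7.29, and Xist was at 4440 to 6083 in these 5 libraries, so where its reads come from is uncertain.

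The genes with the highest differences in AHR KO FICZ included 3 on the chromosome of Ahr. Prkar2b (chromosome 12, 31958476 to 32061296), a regulatory subunit of protein kinase A, had 6.3, 3.9 and 2.0 normalised counts in WT FICZ against 152.1 and 173.3 in AHR KO FICZ (log2 difference 5.10 ± 0.38, adjusted p = 1.61e-05). Atp6v1c2 (chromosome 12, 17284721 to 17329359), a subunit of the vacuolar proton pump, had 3.9, 5.6 and 10.9 against 151.4 and 186.3 (4.54 ± 0.36). Mboat2 (chromosome 12, 24830879 to 24964397), a lysophospholipid acyltransferase, had 23.3, 26.4 and 21.7 against 572.0 and 395.1 (4.27 ± 0.21). All 3 were low in WT and clearly present in AHR KO, and they differed by 4.16, 4.09 and 3.67 under DMSO too. Within 20 Mb of Ahr (chromosome 12, 35497974 to 35535038), 43 of 106 tested genes were called (40.6%), 22 of them higher, against 71 of 339 (20.9%) on the rest of the chromosome. The part of this position in the differences was not tested.

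Other genes with large positive differences lie elsewhere in the genome. Cldn2 (chromosome X, 139800828 to 139811386), which forms a cation-permeable tight junction pore, had 133.8, 117.0 and 174.7 in WT FICZ against 1233 and 1201 in AHR KO FICZ, 8.58 times higher (log2 difference 3.11 ± 0.16, adjusted p = 1.67e-06). Ptgs1, the constitutive cyclooxygenase, had 34.9, 30.6 and 31.7 against 227.4 and 312.7, 8.34 times higher (adjusted p = 8.02e-06). Lcn2, an iron-chelating antimicrobial protein, had 19.6, 20.5 and 14.9 against 146.0 and 152.7 (2.97 ± 0.23). Cldn2 and Ptgs1 stand for themselves, since the junction and prostaglandin lists given below had more genes called lower than higher. Lcn2 belongs to the chemokine and cytokine list given below, where 8 of 18 genes were called higher and 3 lower. Basp1, a membrane-cytoskeleton protein, differed by 3.19 ± 0.35, the thrombin receptor F2r by 2.96 ± 0.21, the monocyte chemokine Ccl2 by 2.80 ± 0.25, the metalloprotease inhibitor Timp3 by 2.79 ± 0.45 and Tcp11l1 by 2.62 ± 0.58, the last without a call when AHR KO FICZ replicate 3 was left out (adjusted p = 0.0872). Among genes of other types with a mean of 50 or more and no overlap between the genotypes, the processed pseudogene Gm7993 was the highest (5.93 ± 0.84) and Gm10052 the lowest, at 148.6, 213.5 and 335.3 in WT FICZ and 0 in both AHR KO FICZ libraries, at least 77.5-fold lower against a floor of 3 counts per library. Such copies share sequence with their parent genes, so their counts are uncertain.

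Lists of genes were then compared with the 20.0% of all genes that were called. The lists were chosen with earlier results of these data known, so their directions are descriptions and not independent evidence. The highest shares of called-lower genes were in the AHR battery, mature colonocyte genes and intestinal identity factors, and the highest shares of called-higher genes were in fetal-like, p53 and YAP/TEAD lists. The p53 list lost that place without AHR KO FICZ replicate 3, when 2 of its 16 genes were called higher, and without WT FICZ replicate 3, when 6 were.

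**Figure D2:**
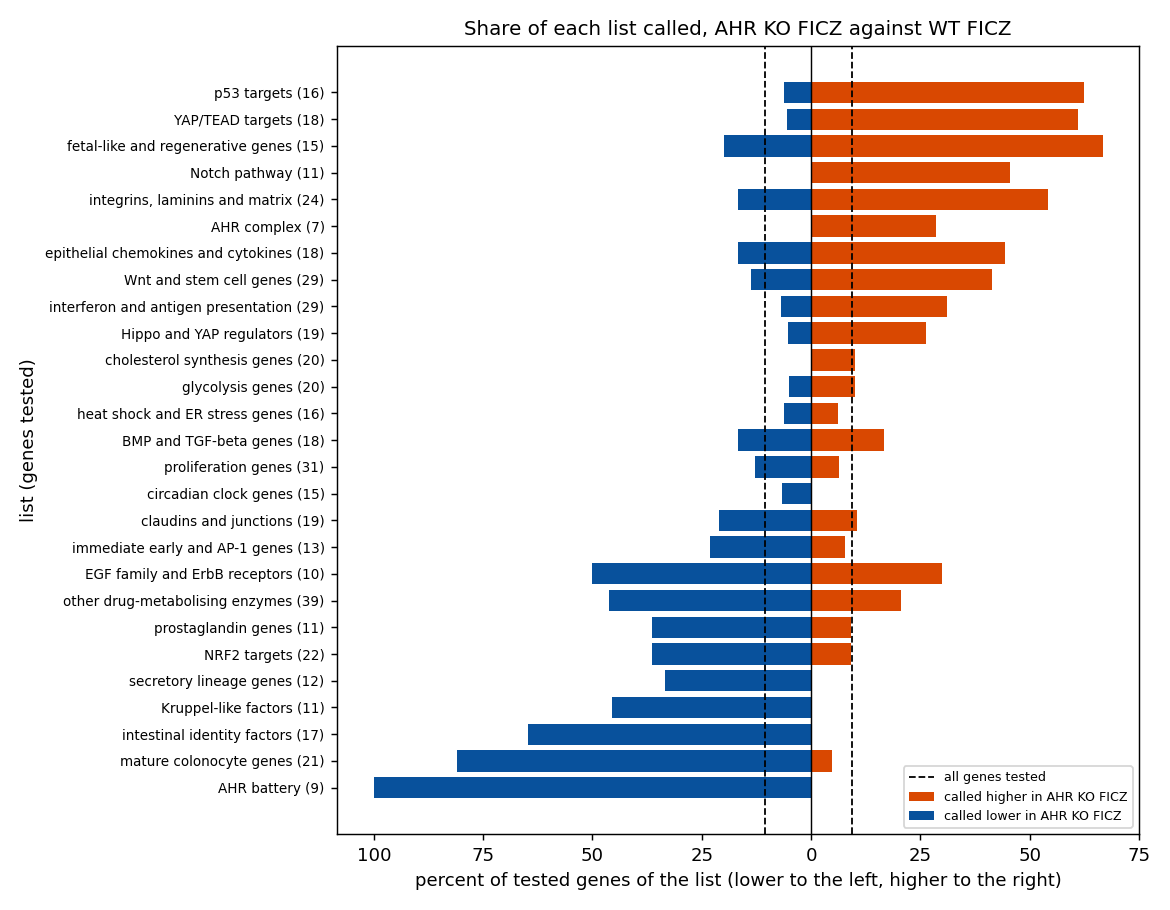
Percent of the tested genes of each list that were called higher (right) or lower (left) in AHR KO FICZ against WT FICZ, with the number tested in parentheses and dashed lines at the shares over all genes tested (9.48% higher and 10.5% lower); the gastric list, with 2 genes tested, is not drawn. Mature colonocyte genes extend to the left (17 of 21 lower) and YAP/TEAD targets to the right (11 of 18 higher).

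Of 17 transcription factors that set intestinal identity, 11 were called lower and 0 higher, with a median log2 difference of -0.41 against 0.00 over all genes, and 10 to 12 were lower under the alternatives. Vdr, the vitamin D receptor, had 1111, 785.9 and 997.9 normalised counts in WT FICZ against 321.1 and 253.3 in AHR KO FICZ (-1.74 ± 0.14, adjusted p = 2.76e-05). The caudal-type factors Cdx1 (-1.43 ± 0.10) and Cdx2 (-1.08 ± 0.09) both fell below WT in each AHR KO library, with 7393, 6006 and 6870 against 3269 and 3104 for Cdx2. The nuclear receptor Hnf4a was lower by a smaller amount (-0.86 ± 0.08), and Rxra, the partner of many nuclear receptors, by less still (-0.31 ± 0.08, adjusted p = 0.0201), a call that was lost when any FICZ library except WT replicate 2 was left out (adjusted p up to 0.127). Gata6 (0.06), Hnf4g (0.07), Foxa1 (-0.23), Foxa2 (-0.29), Prdm1 (0.26) and Prox1 (0.85) were not called. Kruppel-like factors, which overlap this list, had 5 of 11 called lower and 0 higher, among them Klf2 (-0.99), Klf5 (-0.76), Klf9 (-0.54), Klf3 (-0.43) and Klf4 (-0.41). Without AHR KO FICZ replicate 3, Klf2 (adjusted p = 0.127) and Klf3 (adjusted p = 0.0668) lost the call, and 3 of the 11 were lower.

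Genes of mature colonocytes, the absorptive cells of the colon surface, had 17 of 21 tested called lower and 1 higher, with a median log2 difference of -0.95. Another 7 of the 28 listed, among them Car4, Alpi, Aqp8 and Guca2b, were under the filter on low values and were not tested. Slc9a3, the apical sodium-proton exchanger, had 297.4, 174.8 and 251.8 normalised counts in WT FICZ against 52.2 and 15.1 in AHR KO FICZ (-3.02 ± 0.43). Slc26a3 (chromosome 12, 31390871 to 31473917), the chloride-bicarbonate exchanger that marks differentiated colonocytes, was low in this Wnt-rich medium, with 35.6, 25.6 and 32.1 against 4.2 and 4.3 (-2.61 ± 0.37, adjusted p = 0.000814), and it lies in the region around Ahr described above. Carbonic anhydrase Car1 had 2190, 1561 and 2530 against 407.4 and 335.0 (-2.47 ± 0.19). The proton pump Atp12a (-2.04 ± 0.14) and the keratin Krt20 (-0.95 ± 0.16) were also lower. The amino acid transporter Slc6a14 was the member called higher (0.74 ± 0.09). Car2 (0.22), Vil1 (-0.14) and Ceacam1 (-0.17) were not called. Without AHR KO FICZ replicate 3, 13 of the 21 were called lower.

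Of 30 secretory lineage genes listed, 18 were under the filter on low values and were not tested. Among these were Atoh1, Spdef, Neurog3, Neurod1, Pyy, Trpm5 and Pou2f3. Of the 12 tested, 4 were called lower and 0 higher. Clca1, secreted by goblet cells, had 1734, 1551 and 2329 in WT FICZ against 520.7 and 391.3 in AHR KO FICZ (-2.03 ± 0.20), and Agr2 (-1.32 ± 0.24), Fcgbp (-1.17 ± 0.16) and Clca3b (-1.12 ± 0.07), also goblet cell products, were lower. Agr2 (chromosome 12, 35992907 to 36004087) lies in the region around Ahr described above. The goblet cell mucin Muc2 was not called (-0.59 ± 0.64, adjusted p = 0.568). Its WT FICZ libraries ran from 73.1 in replicate 2 to 434.6 in replicate 1, a wider spread than the difference, and the AHR KO libraries, at 140.6 and 156.2, lay inside that range.

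**Figure D3:**
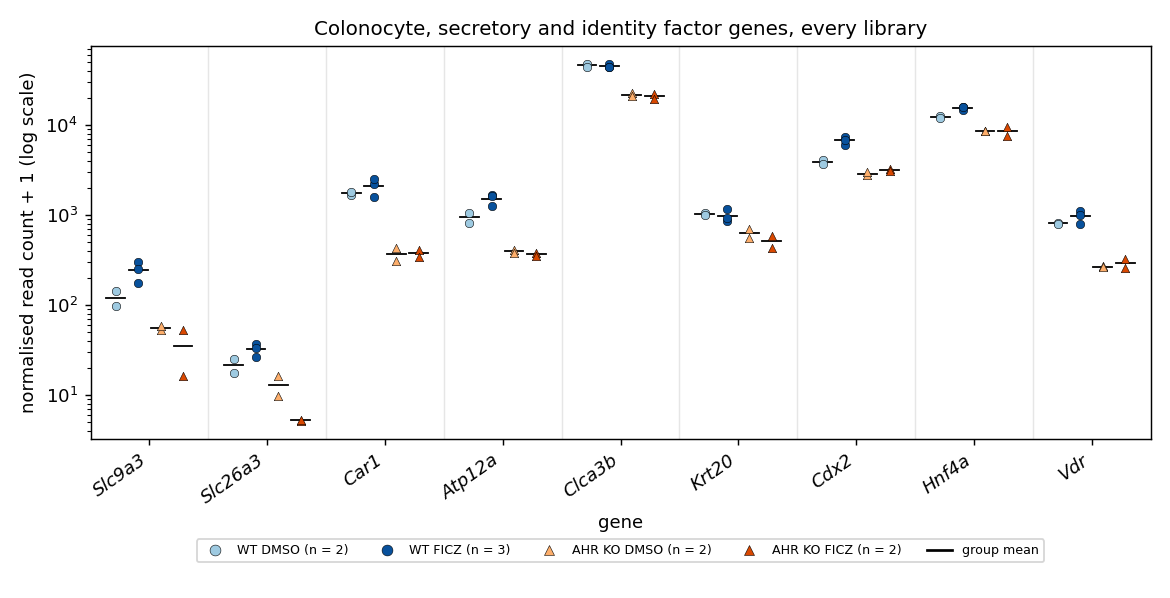
Normalised read count + 1 (log scale) of colonocyte, secretory and identity factor genes in every library of the 4 groups; points are libraries and bars are group means. For the 9 genes drawn, AHR KO FICZ lies below WT FICZ, from a log2 difference of -3.02 for Slc9a3 to -0.86 for Hnf4a.

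Targets of YAP and its DNA-binding partners TEAD1 to TEAD4, which read out the Hippo pathway and rise in regenerating epithelium, had 11 of 18 called higher and 1 lower, with a median log2 difference of 0.51. The count of higher genes was 9 to 12 under the alternatives. Ankrd1 (chromosome 19, 36111961 to 36120099), an ankyrin repeat protein of the nucleus and sarcomere, had 8.8, 16.4 and 6.0 normalised counts in WT FICZ against 119.2 and 184.8 in AHR KO FICZ, 14.6 times higher (3.82 ± 0.43, adjusted p = 0.000172). Ccn2, the matricellular protein also called Ctgf, had 1109, 1174 and 992.5 against 5792 and 6618 (2.51 ± 0.08, adjusted p = 1.29e-07). Ccn1, also called Cyr61, had 609.3, 590.6 and 540.9 against 1443 and 1649 (1.41 ± 0.09). Each of these 3 canonical targets was above all WT libraries in both AHR KO libraries. Igfbp3, which binds insulin-like growth factors, was low in WT (4.9 to 12.2) and 36.5 and 58.4 in AHR KO FICZ (2.27 ± 0.40), and Amotl2, a YAP-binding angiomotin, had 629.3, 475.1 and 420.2 against 1240 and 1484 (1.44 ± 0.15). The ectonucleotidase Nt5e was the member called lower (-0.93 ± 0.28, adjusted p = 0.0417), a call lost in 10 of the 21 alternatives, and Gadd45a (0.15), F3 (0.23), Tgfb2 (0.65) and 3 others were not called.

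Of 19 regulators of the pathway tested, 5 were called higher and 1 lower, and 8 and 3 were without WT FICZ replicate 2. Yap1 itself was not called (0.13). Its paralogue Wwtr1, which encodes TAZ, had 762.2, 794.3 and 753.9 normalised counts in WT FICZ against 1215 and 1245 in AHR KO FICZ (0.68 ± 0.06, adjusted p = 4.4e-05), the kinase gene Lats2 was higher by 0.56 ± 0.08, Tead1 by 0.26 and Tead4 by 0.28, and Amotl1 by 1.53 ± 0.15. Tead4 lost its call without AHR KO FICZ replicate 3 (adjusted p = 0.0747). Lats1, Nf2, Sav1, Stk3 and Stk4, the core of the Hippo kinase cassette, lay between -0.15 and -0.05 and were not called.

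The same 250-base windows were read for the TEAD core GGAATG on either strand (reverse complement CATTCC). It occurred in 12.7% of the tested genes with an entry and in 14.4% of all genes with an entry, and in 6 of the 13 YAP/TEAD targets with an entry (46.2%). The windows of 3 of these targets, Ankrd1, Ccn1 and Amotl2, which were described above, are shown, at chr19:36119845-36120094 (minus strand), chr3:145649986-145650235 (minus) and chr9:102717554-102717803 (plus), with the motif in capitals.
Ankrd1: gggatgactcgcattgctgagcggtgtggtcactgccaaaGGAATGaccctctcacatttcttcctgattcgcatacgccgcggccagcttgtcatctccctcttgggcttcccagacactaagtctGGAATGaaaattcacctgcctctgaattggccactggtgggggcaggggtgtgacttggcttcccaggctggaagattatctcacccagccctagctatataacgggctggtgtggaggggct
Ccn1: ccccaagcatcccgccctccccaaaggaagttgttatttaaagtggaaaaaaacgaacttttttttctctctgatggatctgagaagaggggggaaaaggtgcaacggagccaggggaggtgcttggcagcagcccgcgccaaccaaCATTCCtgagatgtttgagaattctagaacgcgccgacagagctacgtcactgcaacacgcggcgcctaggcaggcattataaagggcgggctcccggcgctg
Amotl2: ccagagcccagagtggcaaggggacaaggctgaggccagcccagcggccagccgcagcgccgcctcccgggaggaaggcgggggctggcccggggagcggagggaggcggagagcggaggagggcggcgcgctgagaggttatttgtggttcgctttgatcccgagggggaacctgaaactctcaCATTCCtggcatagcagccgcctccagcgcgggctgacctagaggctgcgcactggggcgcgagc
Ankrd1 held 2 matches and Ccn1 and Amotl2 1 each, whereas the windows of Igfbp3 and Lats2 held 0 and Ccn2 had no entry. Il33, of the fetal-like list below, had 2 windows with 1 match each, which are not shown. The matches describe letters only, in a list that was drawn up from known YAP/TEAD targets.

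Fetal-like and regenerative genes, which mark injured or fetal epithelium, had 10 of 15 called higher and 3 lower, with a median log2 difference of 0.47. Il33, an alarmin cytokine, had 247.5, 357.9 and 321.1 normalised counts in WT FICZ against 1675 and 1889 in AHR KO FICZ, 5.77 times higher (2.54 ± 0.14, adjusted p = 2.14e-06). The gap junction gene Gja1 had 36.3, 50.4 and 51.0 against 158.6 and 172.3 (1.84 ± 0.20). Msln (mesothelin) differed by 1.55 ± 0.10, and Clu, a marker of revival stem cells, had 6563, 5327 and 5146 against 12560 and 16390 (1.35 ± 0.15). Ly6a, which encodes the surface protein Sca-1, was abundant in every library and differed little, with 26740, 30440 and 29500 against 36160 and 33650 (0.27 ± 0.06, adjusted p = 0.0139), and the call was lost without AHR KO FICZ replicate 1 (adjusted p up to 0.096). The EGF receptor ligands Ereg (-1.19 ± 0.07) and Areg (-0.80 ± 0.10) and the interleukin-1 receptor antagonist Il1rn (-0.31 ± 0.08) were the members called lower, Il1rn not without AHR KO FICZ replicate 3 (adjusted p = 0.185).

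Wnt and stem cell genes had 12 of 29 called higher and 4 lower, with a median log2 difference of 0.12, and 8 were called higher without AHR KO FICZ replicate 3. Lgr5, the R-spondin receptor that marks crypt stem cells, had 490.5, 547.1 and 492.4 normalised counts in WT FICZ against 1579 and 1253 in AHR KO FICZ (1.46 ± 0.11, adjusted p = 1.5e-05). Sox9, a factor of crypt base progenitors, had 2186, 1665 and 1951 against 4149 and 4279 (1.13 ± 0.09). Both were above all WT libraries in each AHR KO library. Tnfrsf19 differed by 1.59 ± 0.20, and Znrf3, a ubiquitin ligase that removes Wnt receptors, by 0.40 ± 0.09, a call lost without AHR KO FICZ replicate 3 (adjusted p = 0.0984). Its relative Rnf43 was not called, with 3794, 3881 and 3877 against 3728 and 3652 (-0.06 ± 0.04, adjusted p = 0.366), nor was the stem cell factor Ascl2 (0.12 ± 0.18, adjusted p = 0.68). Axin2 (0.01) and Ctnnb1 (0.05), the general Wnt target and beta-catenin, were not called. Tcf7l2, the main TCF of the gut, was called lower (-1.32 ± 0.11). Myc stood at the threshold (0.20 ± 0.06, adjusted p = 0.0493) and was not called in 12 of the 21 alternatives.

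**Figure D4:**
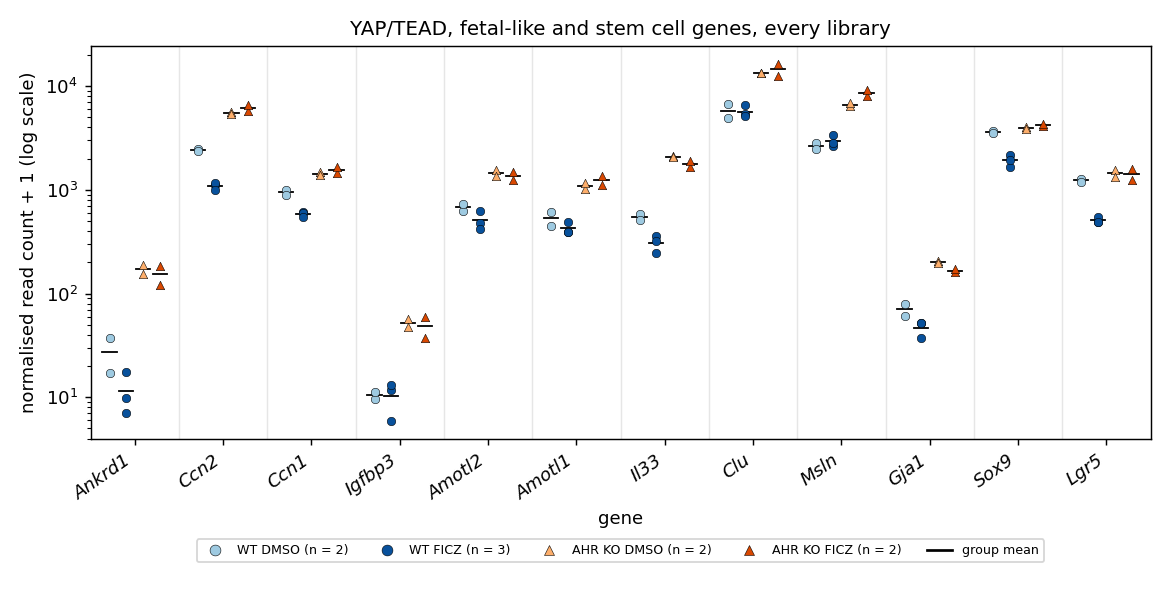
Normalised read count + 1 (log scale) of YAP/TEAD, fetal-like and stem cell genes in every library of the 4 groups; points are libraries and bars are group means. AHR KO FICZ lies above WT FICZ for the 12 genes drawn, from a log2 difference of 3.82 for Ankrd1 to 1.13 for Sox9, and for Lgr5 and Sox9 the DMSO libraries of both genotypes lie close together.

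Among genes of adhesion, 13 of 24 integrins, laminins and matrix genes were called higher and 4 lower, but 8 were higher without AHR KO FICZ replicate 1 or without WT FICZ replicate 3, and 4 without AHR KO FICZ replicate 3. The number lower was 2 without AHR KO FICZ replicate 1, WT FICZ replicate 1 or WT FICZ replicate 3. Lamb1 (2.51 ± 0.44), a laminin chain whose gene lies near Ahr on chromosome 12 (31265234 to 31329644), and the basement membrane linker Nid1 (2.29 times higher by the group means, adjusted p = 0.000175) rose most among those that kept the call, whereas Itgb8 was at the threshold (adjusted p = 0.0494). The collagen IV chains Col4a1 (-0.61 ± 0.15) and Col4a2 (-0.65 ± 0.12) were called lower, as was Lama3 (-1.01 ± 0.29), which lost its call in 10 alternatives. In the claudin and junction list, 2 of 19 were higher (Cldn2 and Marveld2) and 4 lower, among them Cldn15 (-1.20 ± 0.14), Cldn3 (-0.70 ± 0.07) and Cldn23 (-0.60 ± 0.15). Without AHR KO FICZ replicate 3 Marveld2 (adjusted p = 0.0858) and Cldn23 (adjusted p = 0.14) lost the call, and without AHR KO FICZ replicate 1 so did Col4a1 (adjusted p = 0.158).

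Signalling ligands split by gene. In the Notch list 5 of 11 were called higher and 0 lower, among them the ligands Jag1 (0.51 ± 0.08) and Jag2 (0.70 ± 0.07) and the receptor Notch3 (0.67 ± 0.14), while the target Hes1 was not called (-0.10). In the EGF list 5 of 10 were lower (Ereg, Areg, Btc, Erbb3 and Erbb2) and 3 higher (Hbegf at 0.42 ± 0.06, Lrig1 at 0.42 ± 0.05 and Errfi1 at 0.25 ± 0.06), and Egfr was not called (0.04). Bmp4 was near 0 in WT FICZ (2.2 to 3.8) and 17.96 and 30.81 in AHR KO FICZ (2.72 ± 0.53), without a call when AHR KO FICZ replicate 3 was left out (adjusted p = 0.0652), and the BMP target Id1 was higher (0.57 ± 0.08) while Id2 (-0.79 ± 0.21) and Bmp2 (-0.78 ± 0.20) were lower, out of 3 higher and 3 lower in 18. Calls were also lost without AHR KO FICZ replicate 3 for Notch3 (adjusted p = 0.0797), Btc (0.15), Errfi1 (0.0634) and Bmp2 (0.171), and without AHR KO FICZ replicate 1 for Id2 (0.158), whose gene lies within 20 Mb of Ahr. Without AHR KO FICZ replicate 3 the Notch list had 3 higher, Lfng losing its call as well (adjusted p = 0.0999), and the EGF list had 3 lower, as it did without WT FICZ replicate 1. The BMP list had 0 lower without WT FICZ replicate 3 and 1 without WT FICZ replicate 1 or either AHR KO FICZ library.

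Epithelial chemokines and cytokines had 8 of 18 called higher and 3 lower. Besides Lcn2 and Il33, Ccl20, which attracts CCR6-positive lymphocytes, had 30.2, 46.5 and 47.6 normalised counts in WT FICZ against 166.1 and 268.3 in AHR KO FICZ (2.35 ± 0.26), and Csf1 (1.85) and the neutrophil chemokines Cxcl1 (1.49), Cxcl2 (1.84) and Cxcl5 (1.32) were higher. Ccl28 and the interleukins Il18 (-1.63 ± 0.16) and Il15 (-1.58 ± 0.41) were lower, Il15 without a call when AHR KO FICZ replicate 3 was left out (adjusted p = 0.174). Prostaglandin genes had 4 of 11 lower and 1 higher. The inducible cyclooxygenase Ptgs2 had 463.7, 491.3 and 470.1 against 89.2 and 114.0 (-2.22 ± 0.17), opposite to its paralogue Ptgs1, and the phospholipase Pla2g4a (-1.34 ± 0.08) and the prostaglandin-degrading Hpgd (-1.30 ± 0.22) were lower.

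Of drug-metabolising enzymes outside the battery, 18 of 39 were called lower and 8 higher. The P450 genes Cyp2c55 (-2.29 ± 0.27), Cyp2c65 (-2.04 ± 0.28) and Cyp2d26 (-2.34 ± 0.47) and the bilirubin glucuronosyltransferase Ugt1a1 (-2.32 ± 0.31) were lower, though Cyp2d26 lost its call without AHR KO FICZ replicate 3 (adjusted p = 0.0525) and the count of lower genes was then 11. Glutathione transferases went both ways, with Gstt1 (1.44 ± 0.17) and Gstm2 (adjusted p = 0.00589) higher and Gsta1 (-0.73) and Gstp1 (-0.57) lower, and the epoxide hydrolases Ephx1 (0.92 ± 0.07) and Ephx2 (0.90 ± 0.16) were higher. NRF2 targets had 8 of 22 lower and 2 higher, and 5 lower and 1 higher without AHR KO FICZ replicate 1. Those lower by most were Nqo1, which is also in the battery, Osgin1 (-1.44 ± 0.15), Srxn1 (-0.54 ± 0.06) and Gclm (-0.53 ± 0.08), whereas Hmox1 (0.36 ± 0.09) and Me1 (0.37 ± 0.09) were higher and Slc7a11 (0.00), Txn1 (-0.02) and G6pdx (-0.03) were not called. Gstm2 (adjusted p = 0.0705) and Hmox1 (0.123) lost the call without AHR KO FICZ replicate 3, and Me1 (0.106) without AHR KO FICZ replicate 1.

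Stress and housekeeping programs were examined last. Of 16 p53 targets 10 were called higher and 1 lower, with the largest differences at Eda2r (0.99 ± 0.10), Trp53inp1 (0.63 ± 0.14) and Phlda3 (0.50 ± 0.11), but 6 were higher without WT FICZ replicate 3 and 2 without AHR KO FICZ replicate 3, and the cell cycle inhibitor Cdkn1a was not called (-0.16). Interferon and antigen presentation genes had 9 of 29 higher and 2 lower, and 4 higher without AHR KO FICZ replicate 3. The invariant chain gene Cd74 had 6.7, 3.7 and 4.1 in WT FICZ against 47.3 and 58.2 in AHR KO FICZ (3.23 ± 0.42) and the class II gene H2-Ab1 was higher (1.77 ± 0.38), while the RNA sensor Ddx58 was lower (-0.81 ± 0.05). Proliferation genes had 6 of 31 called (19.4%), close to the share of all genes, with the cyclin gene Ccnd1 higher (0.68 ± 0.06) and Plk1 (-0.34 ± 0.08), Aurka and Birc5 lower, and Mki67 (-0.28), Top2a (-0.10) and Pcna (-0.10) not called. For 20 glycolysis genes 2 were higher and 1 lower, for 20 cholesterol synthesis genes 2 and 0, for 13 immediate early genes 1 and 3, for 16 heat shock and ER stress genes 1 and 1, for 15 clock genes 0 and 1, and for the 2 tested gastric genes 1 (Muc1, 1.32 ± 0.28) and 0. Calls lost without AHR KO FICZ replicate 3 were those of Trp53inp1 (adjusted p = 0.0727), Phlda3 (0.113) and Muc1 (0.0744), and without AHR KO FICZ replicate 1 those of H2-Ab1 (0.0851), Plk1 (0.103), Aurka (0.0907) and Birc5 (0.066). Without AHR KO FICZ replicate 1 no proliferation gene was called lower (0 of 31) and 4 glycolysis genes were, and without WT FICZ replicate 2 the genes called higher were 5 for cholesterol synthesis and 3 for heat shock and ER stress. The 1 gene called lower in each of the glycolysis, heat shock and clock lists was lost without WT FICZ replicate 3 or AHR KO FICZ replicate 3 and the 1 higher immediate early gene without AHR KO FICZ replicate 1.

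The genotype difference was next compared with that under DMSO, in order to separate differences present without the ligand from those that depended on it. The DMSO libraries were other ones, but their numbers also occur under FICZ, so both contrasts may come from the same organoid lines. Agreement between the treatments is therefore not independent evidence of a genotype difference. Under DMSO 1153 genes were called (9.05%). Of the 2544 called under FICZ, 967 (38.0%) were also called under DMSO, which is 83.9% of the DMSO calls, and 963 of these had the same sign. Of the 1577 called under FICZ alone, 1439 had the same sign under DMSO, and 32 were called in the interaction, the test of the difference between the contrasts. A call in one treatment and not in the other is therefore in most cases not shown to be a difference between treatments. With 2 libraries a group under DMSO the test there had less to work with.

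The interaction called 57 genes (0.447%), 48 with a lower and 9 with a higher genotype difference under FICZ than under DMSO. Of these 56 were also called between genotypes under FICZ, 47 lower and 9 higher. Leaving out any 1 DMSO library, or AHR KO FICZ replicate 3, lowered both the 57 and the 48. They were 45 and 37 without WT FICZ replicate 1 and 33 and 26 without WT FICZ replicate 3. Without WT FICZ replicate 2 they were 78 and 60, and without AHR KO FICZ replicate 1 both also rose. With the replicate number as a block they were 39 and 33. Mal, a proteolipid of apical transport vesicles, had 1156, 1032 and 1037 normalised counts in WT FICZ against 259.6 and 349.5 in AHR KO FICZ, while under DMSO it had 346.3 and 220.3 in WT and 270.7 and 305.1 in AHR KO (interaction -1.89, adjusted p = 0.0141). The interaction of Mal was not called without either AHR KO DMSO library (adjusted p up to 0.103). Slc25a48, a mitochondrial carrier, differed by -0.63 under FICZ and 0.41 under DMSO, and Ddx58 by -0.81 and 0.20, so that for these as for Aldh3a1 both contrasts were called with opposite signs. Lmo7 was the fourth such gene (-0.17 and 0.23), not called under FICZ in 12 alternatives. Tiparp (-2.09 and -0.38), Nqo1 (-2.62 and -1.21) and Slc2a6 (-3.88 and -1.57) were called in both with the same sign and a larger difference under FICZ. Cyp1a1 was near 0 in both genotypes under DMSO, and its interaction of -5.59 missed the threshold (adjusted p = 0.0677). Cyp1b1 differed about equally in both treatments (-5.82 and -5.44, interaction adjusted p = 0.881).

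The 9 genes with a higher difference under FICZ included YAP/TEAD targets and stem cell genes. Their number was 1 without AHR KO DMSO replicate 3, 2 without WT DMSO replicate 2, 3 without AHR KO DMSO replicate 1 and 18 without WT FICZ replicate 2. Ccn2 differed by 2.51 under FICZ and 1.18 under DMSO (interaction 1.33, adjusted p = 0.000575), and Ccn1 by 1.41 and 0.60 (interaction 0.81, adjusted p = 0.0222). Lgr5 (1.46 and 0.22) and Sox9 (1.13 and 0.12) were called between the genotypes under FICZ but not under DMSO, with interactions of 1.24 (adjusted p = 0.00784) and 1.01 (adjusted p = 0.0113). Of the 20 alternatives that gave an interaction, it was called in 20 for Ccn2, in 19 for Lgr5 (not without AHR KO DMSO replicate 3, adjusted p = 0.0611), in 16 for Sox9 and in 14 for Ccn1. Leaving out WT DMSO replicate 2, either AHR KO DMSO library or AHR KO FICZ replicate 3 ended the call of Sox9 (adjusted p up to 0.087) and of Ccn1 (up to 0.159), and leaving out WT FICZ replicate 3 or adding the replicate number as a block that of Ccn1. In these 4 genes WT FICZ was the lowest of the 4 groups. Dapk2, a death-associated kinase, Cebpd, a C/EBP factor, and Lrig1, a negative regulator of ErbB receptors, were the other named members (interactions of 0.68, 0.98 and 0.39), and WT FICZ was the lowest group for Dapk2 and Lrig1 but not for Cebpd. The interaction of Dapk2 and Cebpd was not called when any DMSO library was left out (adjusted p up to 0.0966 for both), and that of Lrig1 not in 11 of the 20, the replicate block among them (up to 0.258). No interaction was called for Ankrd1 (3.82 and 2.77, adjusted p = 0.801), Il33 (2.54 and 1.92, adjusted p = 0.414), Igfbp3 (2.27 and 2.32), Clu (1.35 and 1.22) or Cldn2 (3.11 and 2.56), whereas the fetal-like gene Ereg had one of -0.90 (adjusted p = 0.00362). Cdx2 (-1.08 and -0.43) had an adjusted p of 0.0747 in the interaction.

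**Figure D5:**
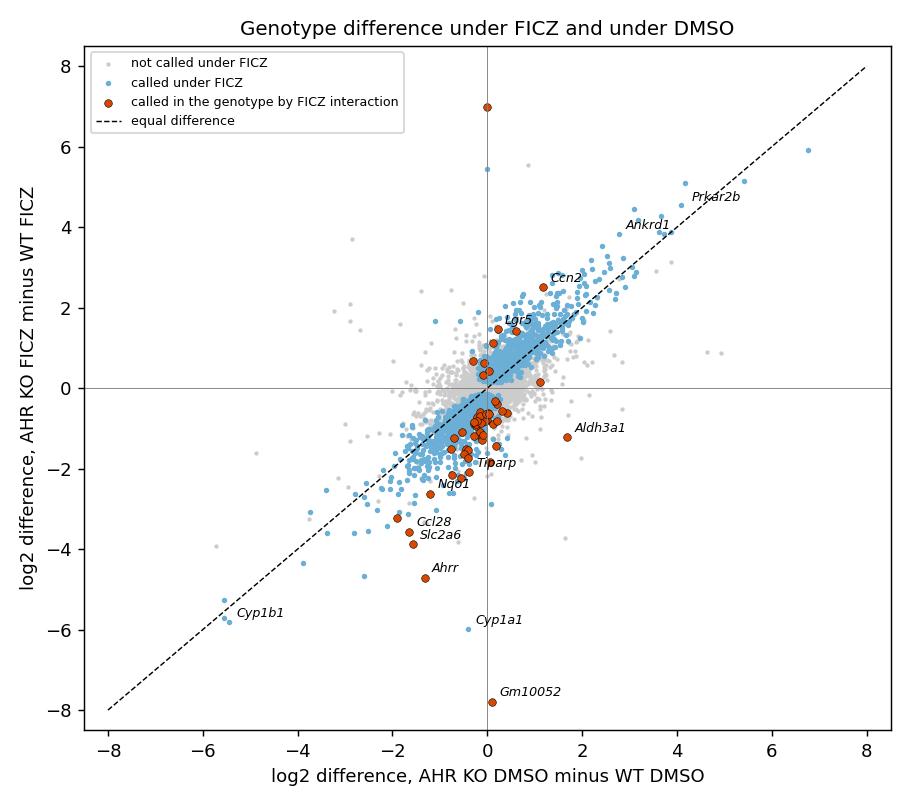
Log2 difference between AHR KO and WT under FICZ (vertical axis) and under DMSO (horizontal axis) for the 12741 genes tested; each point is a gene, and the dashed line marks equal differences. Cyp1b1 and Prkar2b lie near the line, Ahrr, Slc2a6 and Tiparp lie below it among the 57 genes called in the interaction, and Cyp1a1 lies at -5.99 under FICZ and -0.40 under DMSO.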

How the data were processed

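Stranded libraries depleted of ribosomal RNA were sequenced. The values the authors deposited, named RSEM-normalised, are a signal: normalised read counts per Ensembl gene (48795 genes), scaled by a method not given in the sources used here. The submitters' processing notes name STAR (2.5.2a), RSEM (1.2.31), DESeq2 (1.16.1) and GRCm38, the methods of the study another counter, and which step made each value is uncertain. Only 54.0 to 60.7% of low values in the FICZ libraries lay within 0.05 of whole multiples of 1 step, so no reads were recovered, no count model was used, and depth is an estimate. Columns of no sample numbered 0.

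Values were used as log2(value + 1), which understates the change of low genes. Genes averaging at least 10 in all 9 libraries together were fitted with limma (3.58.1, R 4.3.3, eBayes with trend, 4 groups sharing 1 estimate of the spread), two-sided, at an adjusted p-value threshold of 0.05. Symbols and coordinates are from GENCODE M21. The fit was also run on simulated data in which libraries varied independently and equally in every group. That run does not test the fit where the spread differs between groups. Alternatives were other pseudocounts, filters, scalings (TMM, quantile) and fits, removal of a GC content and length trend, and leaving out each library.

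The comparison, lists and tests were chosen with earlier results of these data known. Genes were named by rule: a preset group, the 12 called protein-coding genes highest and the 12 lowest (mean of 50 or more, no overlap), up to 3 of other types each way, up to 4 called members of each list and those against its direction, and the genes most different or most alike between FICZ and DMSO. Other list members were picked for print after their values were seen. Some members counted in the lists are not reported by name here.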

Additional observations from a re-analysis of the deposited data

Results flagged for a closer look

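For 22 named genes the difference between AHR KO and WT was not the same under FICZ as under DMSO by the interaction test of limma (adjusted p under 0.05). Values are the log2 difference under FICZ minus that under DMSO. Among AHR battery genes it was -3.38 for Ahrr (adjusted p = 0.01), -2.91 for Aldh3a1 (0.0356), -1.71 for Tiparp (0.000155), -1.41 for Nqo1 (0.000257) and -0.71 for Nfe2l2 (0.00206). Of the other genes lower in AHR KO FICZ it was -2.31 for Slc2a6, -1.92 for Ccl28, -1.89 for Mal, -1.66 for Ptgs2, -1.61 for Osgin1, -1.32 for Sytl2, -1.03 for Slc25a48, -1.01 for Ddx58 and -0.90 for Ereg. Of the genes higher in AHR KO FICZ it was 1.33 for Ccn2, 1.24 for Lgr5, 1.01 for Sox9, 0.98 for Cebpd, 0.81 for Ccn1, 0.68 for Dapk2 and 0.39 for Lrig1. The interaction was called in every one of the alternatives that gave a value for Nqo1, Nfe2l2, Tiparp, Slc2a6, Slc25a48, Ddx58, Ereg, Ccn2 and Gm10052. It was lost in some for the others, for Osgin1 without AHR KO DMSO replicate 1 (adjusted p = 0.069), for Ptgs2 in 5 (up to 0.128), for Ccl28 in 7 (up to 0.138), for Aldh3a1 in 8 (up to 0.191) and for Sytl2 in 10 (up to 0.235), the replicate block among them for Ccl28, Aldh3a1 and Sytl2. For Ahrr, near 0 under DMSO, it was lost without WT FICZ replicate 1 or 3 and at a pseudocount of 0.1, where it was -0.78 (adjusted p = 0.871).

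The processed pseudogene Gm10052 had the lowest value, -7.88 (adjusted p = 2.86e-05). It had 1258 and 1106 normalised counts in WT DMSO and 1351 and 1174 in AHR KO DMSO, and 0 in both AHR KO FICZ libraries, so the fitted size depends on the pseudocount. How its reads were assigned was not tested.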

How the results depend on the processing

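The count of genes called between genotypes under FICZ was 1892 to 2732 under the 12 alternatives that kept every library or fitted only the groups compared. Leaving out each library gave 1312 (without AHR KO FICZ replicate 3) to 3084 (without WT FICZ replicate 2), and where this left 1 library in a group, that library was assumed to vary like the other groups. The count under DMSO ranged from 389 to 1465 and that of the interaction from 23 to 78 when libraries were left out. Quantile normalization moved the share of lower calls from 52.5 to 47.3%. Of 164 named genes called, 111 kept call and sign under every alternative that gave a value, 53 lost the call under at least 1, and 0 reversed. Muc2 was called under the block and without WT FICZ replicate 2. Deviations from the group mean of same-numbered AHR KO and WT libraries under FICZ correlated at -0.078 and 0.019. With 2 AHR KO FICZ libraries, the deviations of replicate 1 mirror those of replicate 3. These values therefore cannot decide whether the numbers pair the libraries. With the replicate number as a block, 2460 genes were called under FICZ, 2164 of them shared with the 2544, and 39 in the interaction. The organoid line as a random effect had a correlation of 0.058. With 2 AHR KO libraries, small differences such as that of Myc were decided by the setting. Genes under a mean of 10 were not tested.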

Other observations

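Gene families picked by symbol after their values had been seen, 18 in all, are given beside the 20.0% of all genes that were called under FICZ (9.48% higher and 10.5% lower). Of 24 Hox genes tested, 5 were called lower and 0 higher in AHR KO, so that the share called (20.8%) was near that of all genes, and these were Hoxd13, Hoxb13, Hoxa13, Hoxa7 and Hoxb8. Hoxb13 had 213.8, 218.9 and 252.7 normalised counts in WT FICZ against 63.2 and 50.5 in AHR KO FICZ (log2 difference -1.99, adjusted p = 8.21e-05). Hoxd13 differed by -2.37, Hoxa13 by -1.29, Hoxa7 by -0.98 and Hoxb8 by -0.36. Of 6 mucins 4 were lower, among them the membrane mucins Muc3 (-1.40) and Muc4 (-1.16), and 1, Muc1, was higher. The water channel Aqp4 had 739.8, 872.1 and 955.0 against 150.7 and 146.6 (-2.51).

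Annexins, which bind membranes in the presence of calcium, had 6 of 10 called higher and 0 lower, with Anxa6 at 112.1, 162.4 and 130.8 against 366.9 and 418.6 (log2 difference 1.55). Serpins had 4 of 11 higher and 0 lower, keratins 6 of 20 higher and 1 lower (Krt20), and S100 proteins 4 of 10 higher and 0 lower. Among 6 collagens 2 were called higher and 2 lower. The basement membrane chain Col4a5 (2.75, with 13.1, 9.2 and 4.5 against 52.6 and 71.7) and Col18a1 (1.09) were higher, while Col4a1 and Col4a2 were lower. Nuclear subunits of oxidative phosphorylation had 13 of 78 lower and 1 higher with a median of -0.10 (17.9% called), and 0 of 13 genes encoded in mitochondria were called. Cytosolic ribosomal protein genes had 5 of 78 lower and 1 higher (7.69% called), and solute carriers 34 of 210 lower and 28 higher (29.5%). For the other families the counts of higher and lower genes were 4 and 5 of 16 tetraspanins, 3 and 3 of 15 ephrins and Eph receptors, 4 and 5 of 22 semaphorins and plexins, 0 and 3 of 7 galectins, 0 and 4 of 5 UDP-glucuronosyltransferases, 1 and 2 of 7 carbonic anhydrases and 0 and 1 of 2 aquaporins.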
